A study of Mus musculus with 6 samples.

Results

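Collagens are the secreted triple-helical proteins of the extracellular matrix, and their genes were followed here in Lgr5-EGFP-sorted cells of the mouse ovarian surface epithelium, the cell layer that covers the ovary. The members were all genes of the platform annotation whose symbol has the form Col, a number, a and a number. There were 44 such genes, read by 47 probe sets of the 41345 on the array, and 3 of them (Col1a2, Col5a1 and Col6a1) had a pair of probe sets. A further 1 probe set is listed for Col6a1 together with other genes and was left out. EGFP-high and EGFP-low cells were compared, with 3 arrays for each. Both populations came from female mice of the Lgr5-eGFP-CreERT2 genotype, 8 to 12 weeks old and with no treatment, in which EGFP is made from the Lgr5 locus. Cells of 8 mice were pooled for each array, and the submitters call the 3 arrays of a population technical replicates. Their spread may thus be technical, and no p-value here covers differences between animals. Values are log2 intensities, so a difference of 1 is a doubling.

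Fibrillar collagens (types I, II, III, V, XI, XXIV and XXVII) pack side by side into the banded fibrils of connective tissue. Basement membranes hold a sheet of type IV collagen, with types XV and XVIII in or beside it and type VII in the fibrils that anchor them. FACIT collagens (fibril-associated collagens with interrupted triple helices) sit on the surface of fibrils. The rest include the beaded filaments of type VI, the hexagonal networks of types VIII and X and chains that span the cell membrane. The ovarian surface epithelium rests on a basement membrane above the tunica albuginea, a dense layer rich in type I collagen made mainly by fibroblasts.

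The 6 deposited columns are not 6 separate readings. High replicate 2 was the mean of high replicates 1 and 3 for every probe set, to within 7.0e-05, and low replicate 1 was fixed by the other columns, to within 1.25e-04. This leaves 4 independent columns, 2 of them for the EGFP-high cells. Tests were therefore made with limma using a term for inferred array sets as well as group, which leaves 2 residual degrees of freedom. No label names these sets. The term moved no difference by more than 2.86e-05. It changed the degrees of freedom and the standard errors behind the p-values and limits. The fit with group alone counts 4 degrees of freedom. That fit treats the 6 columns as separate readings and is given beside the other where they differ. Lgr5, the gene sorted on, read 1.10 higher in EGFP-high cells (95% limits 0.56 to 1.63). The 11 other surface epithelium markers were brighter than the 95th percentile of 1108 olfactory receptor probe sets on all 6 arrays.

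None of the 47 collagen probe sets passed the adjusted threshold of 0.05 in either direction (0 higher and 0 lower, lowest limma adjusted p 0.958), and neither did any other probe set on the array (0% higher and 0% lower). At an unadjusted p under 0.05 there were 2 lower collagen probe sets, 4.26% of them against 2.8% of all probe sets, and 0 higher, against 2% of all. With group alone, limma called 1 collagen probe set lower, 2.13% against 2.11% of all (874 probe sets), and 0 higher, against 2.03% of all (841). The same Col1a2 gene accounts for each of these lower counts. A difference of at least 1.5-fold was seen for 2 collagen probe sets, both lower (4.26% against 5.79% of all), and for 0 in the other direction, against 3.71% of all. These shares lie near those of the whole array. Without high replicate 3, which leaves high 1 against low 1, 4 collagen probe sets were lower by 1.5-fold, Col1a1 and Col4a1 being the added ones, and without low replicate 3 there was 1 higher, Col8a1.

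Below 0 were 29 of the 47 collagen differences (61.7%, against 50.7% of all probe sets), and their median was −0.09, beside −0.01 for all. Olfactory receptor probe sets, which mark dim signal, were also mostly below 0, with 64.4% there and a median of −0.10. Without high replicate 3 the collagen median was 0.05, and without high replicate 1 or low replicate 1, which are one and the same fit, it was −0.18. The EGFP-high arrays lay entirely below the EGFP-low arrays for 12 probe sets, 25.5% against 15.5% of all, and entirely above them for 5, 10.6% against 16.3% of all. The olfactory receptor probe sets had shares of 20.8% entirely lower and 8.48% entirely higher. The median differed between the classes. It was −0.25 over 13 fibrillar probe sets, −0.14 over 9 of the basement membrane, −0.06 over 9 FACIT and 0.04 over 16 others. Differences between classes were not tested, since the members were chosen with earlier results known.

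**Figure D1:**
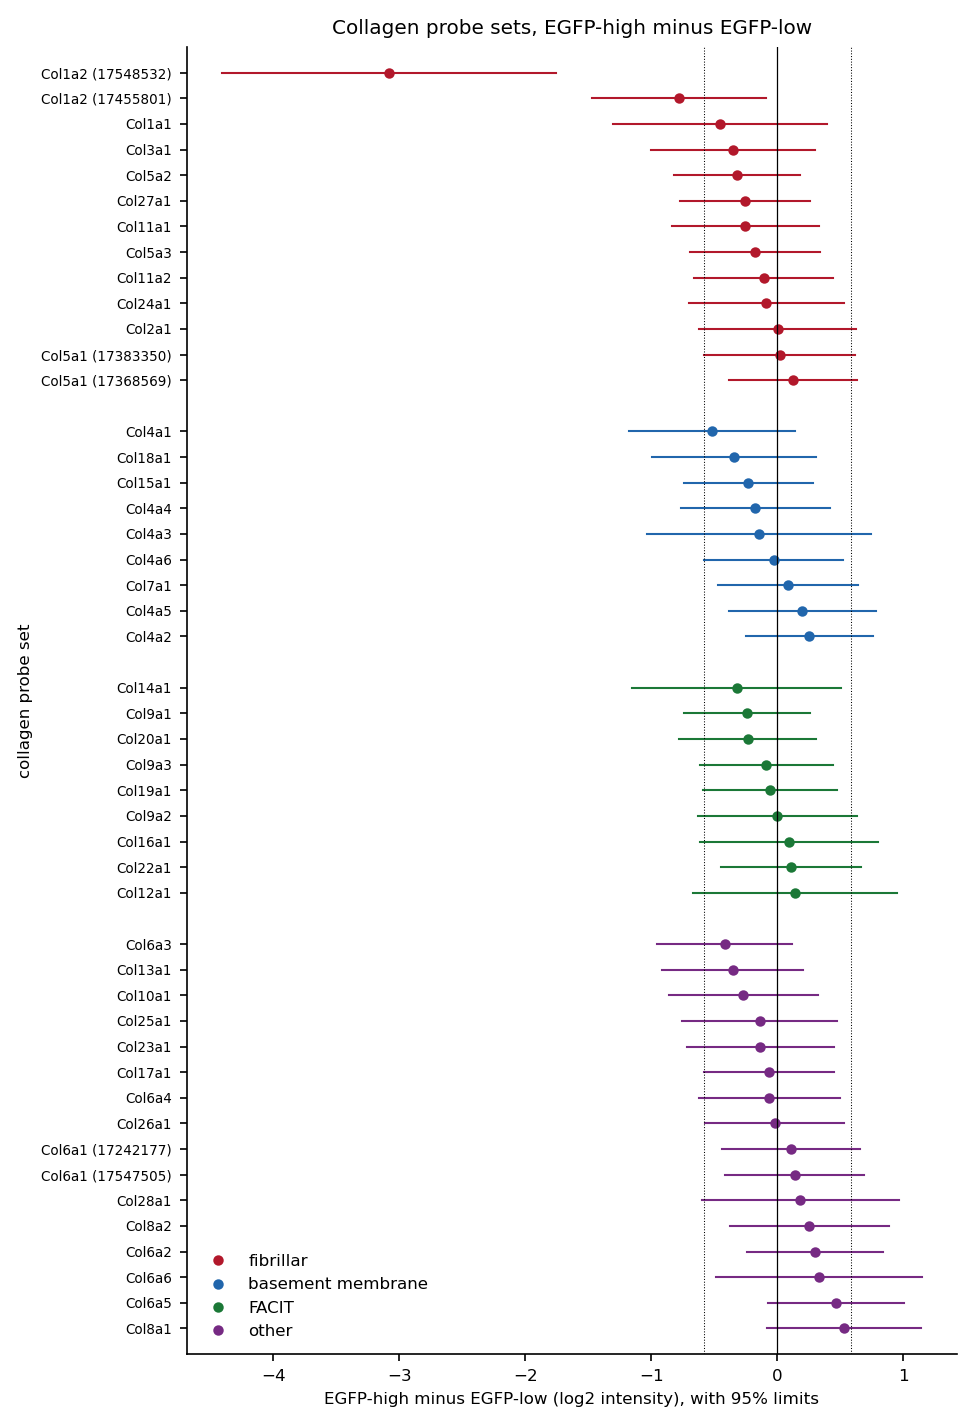
Difference in log2 intensity, EGFP-high minus EGFP-low, for each of the 47 collagen probe sets by class, with 95% limits from limma with the array-set term. Dotted lines mark 1.5-fold. The limits of 45 probe sets span 0, and the exceptions are both probe sets of Col1a2.

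Brightness depends on the probes as well as on the transcript, so levels of different genes are not ranked here. Taking the olfactory receptor genes as a measure of dim signal, a choice made after seeing the data, 21 of the 47 collagen probe sets (44.7%, against 40.9% of all) were above their 95th percentile on every array. That percentile lay between 3.80 and 3.88 on the EGFP-high arrays and between 3.92 and 4.03 on the EGFP-low arrays. On none of the arrays were 17 above it, and 9 were above it on some. Those above it on every array included both probe sets of Col6a1, Col6a2, Col3a1, Col1a1, Col4a1, Col4a2, Col4a5, Col4a6, Col6a6 and Col9a2. Never above it were Col2a1, the fibrillar chain of cartilage, Col11a1 and Col24a1, and in the basement membrane class Col4a3, Col4a4, Col7a1 and Col15a1. The FACIT chains Col9a1, Col9a3, Col14a1 and Col19a1 were never above it. Neither were Col6a5, Col8a1, Col8a2, Col17a1, Col25a1 and Col28a1. Genes never above it are called dim, and the size of their differences is uncertain wherever they are given below. Their signals lie in the range of genes that are normally silent outside sensory neurons and germ cells.

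**Figure D2:**
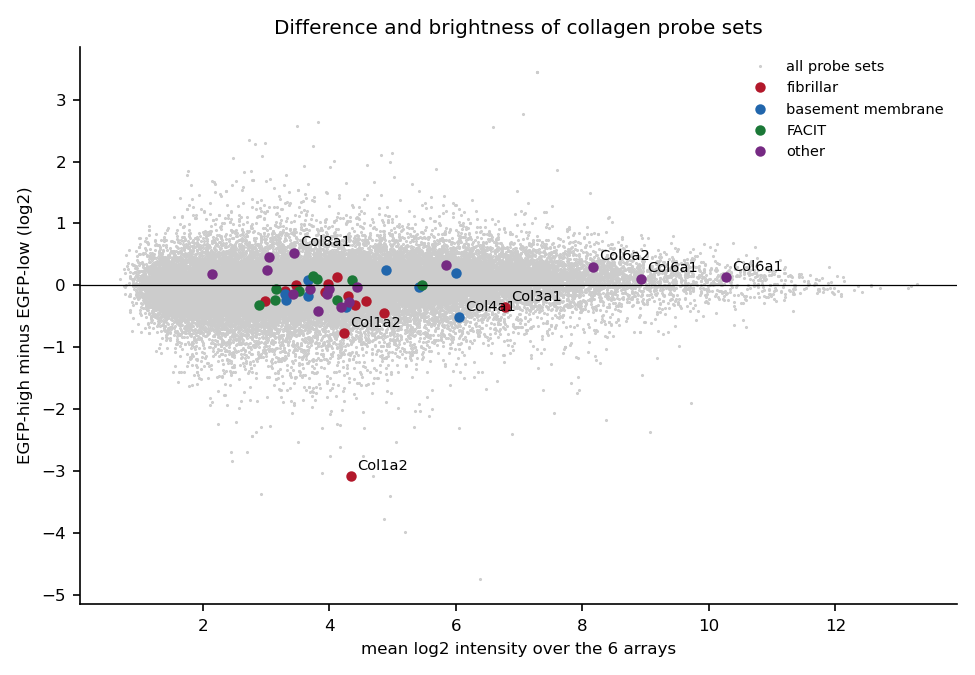
EGFP-high minus EGFP-low in log2 intensity against the mean log2 intensity over the 6 arrays, with all 41345 probe sets in light grey and the collagens coloured by class. One Col1a2 probe set lies at −3.08, while the bright Col6a1 and Col6a2 probe sets lie close to 0.

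The base sequence ahead of Col1a2 is shown because its transcript had the largest collagen difference. It is from RefSeq (GRCm38.p6), where 35 of the 44 genes had a promoter window. Capitals mark the motif CCAAT, the motif TATAAA or the motif GGGCGG, each searched for on both strands, and these do not overlap one another here. It covers the 250 bases before the Col1a2 start, chr6:4505368-4505617, plus strand.
Col1a2: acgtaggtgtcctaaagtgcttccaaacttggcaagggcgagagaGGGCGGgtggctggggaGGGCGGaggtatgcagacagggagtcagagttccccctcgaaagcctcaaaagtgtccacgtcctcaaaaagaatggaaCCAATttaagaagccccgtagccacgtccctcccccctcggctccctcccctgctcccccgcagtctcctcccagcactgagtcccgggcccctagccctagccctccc

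The Col1a2 stretch held 1 copy of CCAAT, beginning 109 bases before the start. It held 2 copies of GGGCGG, 205 and 188 bases before the start, and 0 copies of TATAAA. Among 32851 RefSeq windows of 250 bases before a start, 33.8% held CCAAT, 32.7% GGGCGG and 12.4% TATAAA. Among the 38 collagen windows the shares were 34.2%, 57.9% and 13.2%. These matches describe the letters and do not show that a factor binds there.

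Col1a2 encodes the second chain of type I collagen, which pairs with the product of Col1a1. Its probe set 17548532 read 2.94, 2.81 and 2.67 in EGFP-high cells, against 5.76, 6.78 and 5.13 in EGFP-low cells. The 2 populations did not overlap, and the low arrays were spread over 1.65 while the high arrays were spread over 0.26. All 3 high readings were under the olfactory receptor percentile and all 3 low readings above it. The difference was −3.08 (95% limits −4.41 to −1.76), where limma gave an adjusted p of 0.958 (0.027 in the fit on group alone). Since the high readings give only a bound, the fold of the means is stated against that percentile, as at least 4.16-fold lower. This bound takes no account of the spread between the arrays, which the 95% limits do. Its other probe set, 17455801, read 3.84, 3.85 and 3.86 in EGFP-high cells, against 4.64, 4.95 and 4.30 in EGFP-low cells. It too separated the populations, with a smaller difference of −0.78 (−1.47 to −0.09) where limma gave an adjusted p of 0.958 (0.064 in the fit on group alone). The first minus the second, taken on each array, was −0.91, −1.05 and −1.18 in EGFP-high cells and 1.12, 1.82 and 0.83 in EGFP-low cells. This offset moved by −2.30, and the second probe set was also near the percentile in EGFP-high cells, with 2 of 3 arrays above it. The size of the change in Col1a2 is therefore not settled by these readings. Such offsets between probe sets are given without a test here and below, since permuting 3 against 3 columns would count computed columns as arrays. In the authors' deposited table, which lists 1134 probe sets at 1.5-fold or more, these are the only 2 collagen probe sets, at 9.71-fold and 1.91-fold lower in high. Those folds are −3.28 and −0.94 in log2, which differ from the −3.08 and −0.78 found here. By the deposited values 2393 probe sets were lower and 1533 higher by 1.5-fold or more. Since the authors' folds differ from those found here, these counts do not show how the 1134 were chosen.

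Col1a1, the partner chain, read 4.49, 4.64 and 4.79 in EGFP-high cells, against 5.25, 5.44 and 4.59 in EGFP-low cells. Low replicate 3 lay among the high arrays, and the difference was −0.45 with limits of −1.30 to 0.40. Col3a1, whose product forms mixed fibrils with type I collagen, read 6.49, 6.60 and 6.71 in EGFP-high cells, against 7.06, 7.14 and 6.65 in EGFP-low cells. Here also low replicate 3 overlapped the high arrays, and the difference was −0.35 (−1.001 to 0.30). In Col1a1, Col3a1 and both Col1a2 probe sets, low replicate 2 was the highest of the low arrays and low replicate 3 the lowest. RNA of a whole population was measured, so fewer cells that make these chains and less RNA in each cannot be told apart.

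Type V collagen nucleates type I fibrils. Col5a2 read 4.26, 4.24 and 4.22 in EGFP-high cells, against 4.55, 4.60 and 4.54 in EGFP-low cells, which did not overlap, but the difference of −0.32 had limits of −0.82 to 0.18. Its partner Col5a1 did not follow: its 2 probe sets differed by 0.13 (−0.38 to 0.63) and 0.02 (−0.58 to 0.62). For the first, probe set 17368569, the high arrays lay above the low ones without overlap, while the second overlapped. The sign of the second of these, probe set 17383350, changed with the arrays used. Col5a3, another type V chain, differed by −0.18 (−0.69 to 0.34) and Col27a1, a chain of thin fibrils, by −0.26 (−0.77 to 0.26), both without overlap. Col11a1, a cartilage chain, read 2.996, 2.86 and 2.72 in EGFP-high cells, against 2.97, 3.27 and 3.09 in EGFP-low cells, with overlap and a difference of −0.25 (−0.84 to 0.33). The remaining fibrillar chains, Col11a2, Col24a1 and Col2a1, differed by −0.11, −0.09 and 0.002, and their arrays overlapped.

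**Figure D3:**
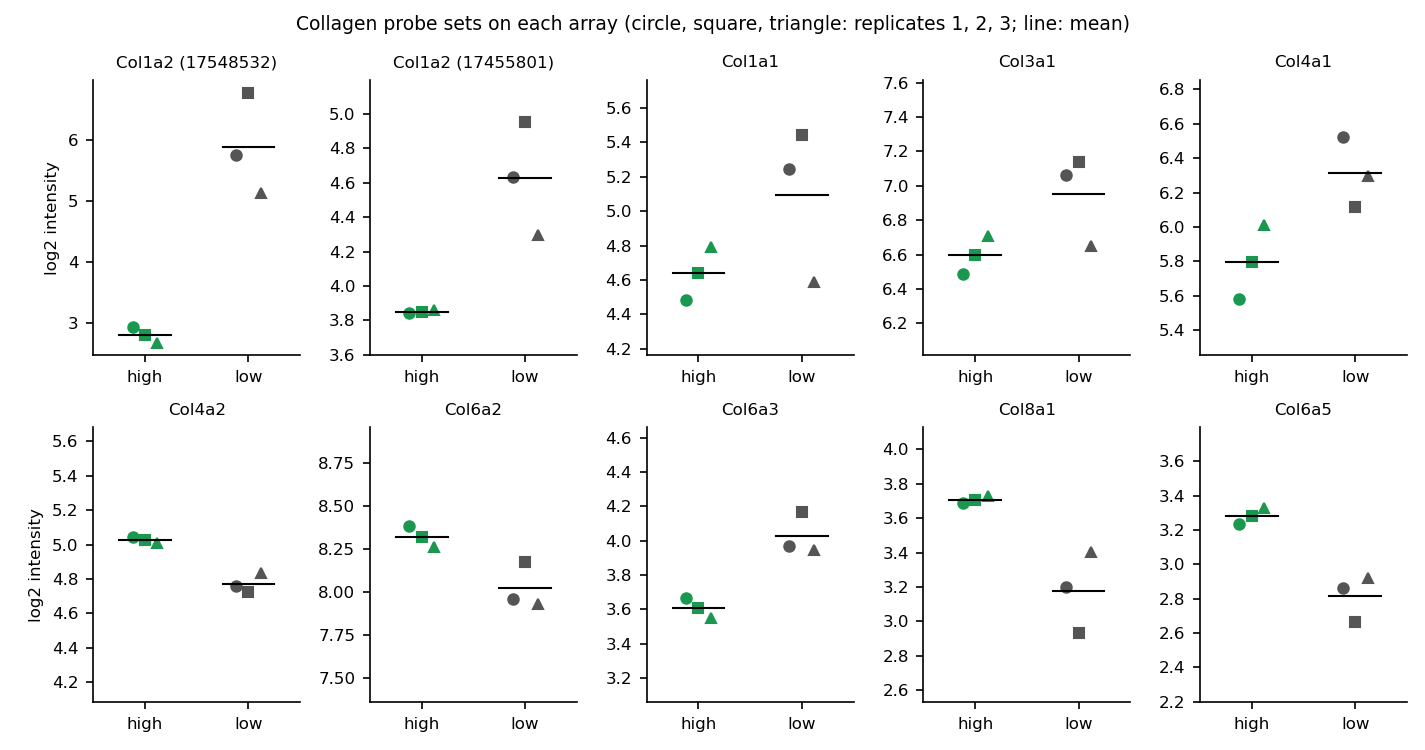
Log2 intensity on each array for 10 collagen probe sets, EGFP-high left of EGFP-low, with a line at the mean. Vertical axes differ between panels. The populations overlap for Col1a1 and Col3a1 and stand apart for the other 8.

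Col4a1 and Col4a2 encode the chains of the type IV network found in nearly all basement membranes, and they are transcribed in opposite directions, with RefSeq starts 21 bases apart so that the ends of the genes overlap. Col4a1 read 5.58, 5.80 and 6.01 in EGFP-high cells, against 6.53, 6.12 and 6.30 in EGFP-low cells. Col4a2 read 5.04, 5.03 and 5.01 in EGFP-high cells, against 4.76, 4.72 and 4.84 in EGFP-low cells. The populations overlapped for neither gene, and the differences had opposite signs, at −0.52 (−1.18 to 0.14) and 0.25 (−0.25 to 0.76), each with limits that span 0. Col4a1 minus Col4a2 on each array was 0.54, 0.77 and 0.999 in EGFP-high cells and 1.77, 1.39 and 1.46 in EGFP-low cells, a change of −0.77 in log2. It is 1 of 5 such pairs, chosen with earlier results known.

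The other type IV pairs are also neighbours in the genome. Col4a5, a chain found in basement membranes of several epithelia, differed by 0.20 (−0.39 to 0.78), and Col4a6, whose start lies 1343 bases from that of Col4a5 on the opposite strand, by −0.03 (−0.58 to 0.52). Col4a5 minus Col4a6 on each array changed by 0.23. Col4a3 and Col4a4, chains of the mature kidney filter, differed by −0.14 and −0.17, with overlapping arrays. The change in Col4a3 minus Col4a4 was 0.03. Col18a1, which gives rise to the fragment endostatin, read 4.20, 4.10 and 3.99 in EGFP-high cells, against 4.34, 4.74 and 4.24 in EGFP-low cells, and differed by −0.34 (−0.99 to 0.31). Its relative Col15a1 differed by −0.23 (−0.74 to 0.28), also without overlap, though it was dim on all arrays. Col7a1 differed by 0.08 (−0.47 to 0.64).

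FACIT collagens showed small differences, from −0.32 for Col14a1 to 0.14 for Col12a1, and 0 of 9 reached 1.5-fold. Col14a1, which regulates fibril diameter in tendon and skin, read 2.89, 2.72 and 2.56 in EGFP-high cells, against 2.88, 3.53 and 2.73 in EGFP-low cells. The high arrays overlapped the low ones, and low replicate 2 stood above the others. Col9a1, a chain of cartilage type IX collagen, differed by −0.24 (−0.74 to 0.26) and Col20a1 by −0.24 (−0.78 to 0.31), both without overlap. Col9a2, Col9a3, Col12a1, Col16a1, Col19a1 and Col22a1 overlapped between the populations.

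Type VI collagen is assembled from Col6a1, Col6a2 and a further chain, most often that of Col6a3. The 2 probe sets of Col6a1 read 10.33, 10.34 and 10.34 and 9.08, 8.98 and 8.88 in EGFP-high cells, against 10.21, 10.36 and 10.03 and 8.77, 8.83 and 9.01 in EGFP-low cells. Both overlapped and differed by 0.14 (−0.42 to 0.69) and 0.11 (−0.44 to 0.66). Col6a2, the next gene along the chromosome, read 8.39, 8.32 and 8.26 in EGFP-high cells, against 7.96, 8.18 and 7.93 in EGFP-low cells, and differed by 0.30 (−0.24 to 0.84) without overlap. Col6a3 went the other way, with 3.67, 3.61 and 3.55 in EGFP-high cells, against 3.97, 4.17 and 3.95 in EGFP-low cells, a difference of −0.42 (−0.95 to 0.12). Its signal was near the olfactory receptor percentile, with 0 of 3 high arrays and 2 of 3 low arrays above it, so the size of its difference is uncertain. Col6a3 minus Col6a2 lay between −4.72 and −4.71 in EGFP-high cells and between −4.01 and −3.99 in EGFP-low cells, a change of −0.72 that carries the same limit.

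The chains that can stand in for Col6a3 did not share its sign in each case. Col6a5 read 3.23, 3.28 and 3.33 in EGFP-high cells, against 2.86, 2.67 and 2.92 in EGFP-low cells, and differed by 0.47 (−0.07 to 1.01). It was dim on all arrays, as was Col8a1. Col6a6 differed by 0.33 (−0.49 to 1.15) and Col6a4 by −0.06 (−0.63 to 0.50), and the arrays of both overlapped. Col8a1, a network-forming chain found around blood vessels and in the eye, had the largest positive collagen difference. It read 3.69, 3.71 and 3.73 in EGFP-high cells, against 3.20, 2.93 and 3.40 in EGFP-low cells, and differed by 0.53 (−0.08 to 1.14, limma adjusted p 0.958). Its partner Col8a2 differed by 0.26 (−0.38 to 0.89) with overlap. Of the membrane-spanning chains, Col13a1 differed by −0.35 (−0.92 to 0.21) without overlap, while Col17a1 of hemidesmosomes, Col23a1 and Col25a1 differed by −0.07, −0.13 and −0.14 and overlapped. The others were Col10a1 of growth-plate cartilage (−0.27), Col26a1 (−0.02) and Col28a1 (0.18), which overlapped too.

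Genes that act on collagens were counted in 3 lists. Of 28 measured genes (32 listed) for processing and cross-linking, 0 passed the limma threshold with the array-set term (1 higher and 1 lower with group alone, 3.57% each against 2.03% and 2.11% of all probe sets), 14 were above 0 and 14 below, and their median was 0.003. Plod2, a lysyl hydroxylase that prepares collagen for cross-links, read 3.96, 4.28 and 4.60 in EGFP-high cells, against 6.01, 5.52 and 5.53 in EGFP-low cells. It separated the populations by −1.40 (−2.20 to −0.61) and was called with group alone (limma adjusted p 0.034). Colgalt2, which adds galactose to hydroxylysine, differed by 0.38 (−0.12 to 0.88, limma adjusted p 0.040 with group alone). It had all 3 high arrays but 0 of 3 low arrays above the olfactory receptor percentile. Ppib, a folding enzyme of the collagen chains, differed by 0.29 (−0.21 to 0.80).

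Of 9 measured collagen receptors (10 listed), 0 passed, and the median was 0.07. The discoidin domain receptor Ddr1 differed by 0.33 (−0.24 to 0.89) and Ddr2, its fibroblast relative, by −0.51 (−1.43 to 0.40), and the platelet receptor Gp6 by −0.38 (−0.9997 to 0.24). Ddr2 and Gp6 each had 0 of 3 high arrays and 1 of 3 low arrays above the olfactory receptor percentile. Of 11 genes for degradation and its inhibition, 0 passed and the median was 0.01. With group alone 2 of these 11 were lower (18.2% against 2.11% of all) and 0 higher. Mmp2, a gelatinase that also cleaves type IV collagen, read 4.76, 4.79 and 4.81 in EGFP-high cells, against 6.497, 6.59 and 6.33 in EGFP-low cells. The difference was −1.69 (−2.22 to −1.15), where limma gave an adjusted p of 0.958 (0.006 in the fit on group alone). Mmp9, the other gelatinase, differed by −0.56 (−1.08 to −0.05, limma adjusted p 0.029 with group alone) and was dim on all arrays. Timp1, an inhibitor of these enzymes, differed by 0.70 (−0.28 to 1.67).

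Markers of other cell types also differed between the populations. Of 11 stromal and fibroblast markers other than collagens, 8 were below 0 with a median of −0.22, and their summed linear intensity ranged from 605 to 624 in EGFP-high cells and from 682 to 835 in EGFP-low cells. Decorin (Dcn), a small proteoglycan that binds collagen fibrils, was the brightest of the list and differed by −0.22 (−0.80 to 0.37). The sums weigh most on it and do not show a shift of all 11 markers. Cd34, a surface protein of stromal and endothelial cells, had the lowest difference of the list at −1.27 (−1.82 to −0.73, limma adjusted p 0.958, or 0.013 with group alone). Thy1 at 0.53 (−0.04 to 1.10) and Fbln1 at 0.17 (−0.33 to 0.67) went the other way, both without overlap, and Pdgfra, Pdgfrb, Lum and Dpt were dim on all arrays. Thy1 had all 3 high arrays but 0 of 3 low arrays above the olfactory receptor percentile. Of 11 leukocyte markers 10 were below 0 (median −0.69), with sums of 143 to 159 in EGFP-high cells and 213 to 581 in EGFP-low cells. With group alone limma called 5 of the 11 lower (45.5% against 2.11% of all probe sets) and 0 higher. Lyz2 had the lowest difference of the list at −3.77 (−5.74 to −1.80) and read 6.84, 8.01 and 5.41 in EGFP-low cells. It had 0 of 3 high arrays above the olfactory receptor percentile, so that size is uncertain. Only 3 of the 11 were above that percentile on all arrays. Ptprc and C1qc were dim on all, and Cd68 (0.07) and C1qa overlapped. Of 6 measured theca and luteal markers 4 were below 0 (median −0.65), with sums of 859.8 to 1030.1 in EGFP-high cells and 1279 to 1786 in EGFP-low cells. With group alone limma called 2 of these 6 lower (33.3% against 2.11% of all probe sets) and 0 higher. Cyp11a1, the enzyme that begins steroid synthesis, had the lowest difference of all 41345 probe sets, at −4.74 (−5.69 to −3.79, limma adjusted p 0.389, or 0.006 with group alone). Hsd3b1, a later enzyme of that path, differed by −2.76 (limma adjusted p 0.958, or 0.034 with group alone). It had 0 of 3 high arrays above the olfactory receptor percentile. Star, the bright cholesterol carrier of the list, differed by 0.33. Of 6 measured granulosa markers (7 listed) 5 were below 0 (median −0.79), with sums of 121 to 159.8 in EGFP-high cells and 183 to 229 in EGFP-low cells. Only Inha, the brightest of them, was above the olfactory receptor percentile on all arrays, and it differed by −0.10 (−0.76 to 0.57). Fst, Fshr, Inhba and Foxl2 were lower without overlap. Without Lgr5, which the sort fixed, the 11 surface epithelium markers were all above 0 (median 0.20), with sums of 11233 to 11674 in EGFP-high cells and 9392 to 9730.2 in EGFP-low cells. With group alone limma called 3 of these 11 higher (Krt18, Dmkn and Cdh1), against 2.03% of all probe sets, and 0 lower. Endothelial sums (278 to 308 in EGFP-high cells and 266 to 288 in EGFP-low cells) overlapped, but they weigh most on Kdr, the brightest of the 6 markers (0.14, −0.40 to 0.69). Of these 6, 3 were above 0 and 3 below. Cdh5 differed by −0.69 (−1.62 to 0.24) with overlap and Emcn by −0.61 (−1.32 to 0.10) without. Emcn, Tek and Cldn5 were dim on all arrays. Sums of smooth muscle and pericyte markers overlapped too (197 to 228 in EGFP-high cells and 174 to 242 in EGFP-low cells). The part of these cells in the collagen differences was not tested.

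**Figure D4:**
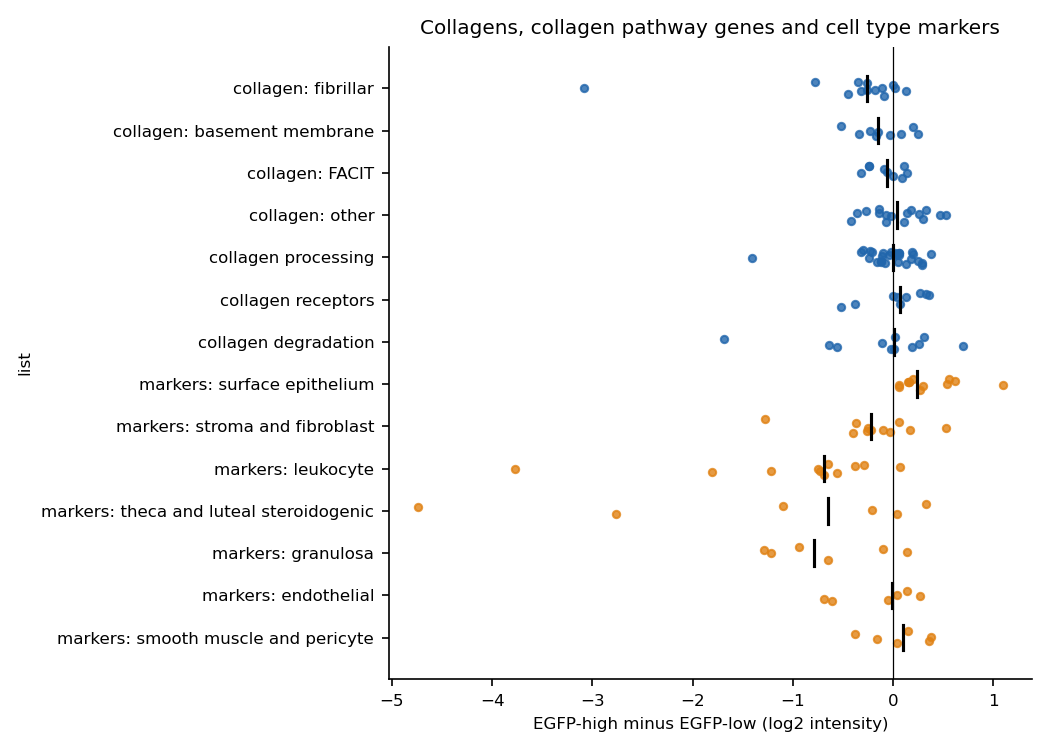
EGFP-high minus EGFP-low in log2 intensity for each collagen probe set, each gene of the collagen pathway lists and each cell type marker, with a bar at the median of each list. Medians are −0.25 for fibrillar collagens, −0.22 for stromal, −0.69 for leukocyte, −0.65 for theca and luteal, −0.79 for granulosa and 0.24 for surface epithelium markers, Lgr5 included, and the stromal markers run from −1.27 to 0.53.

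The deposited columns allow the difference to be read within the inferred array sets. High 1 minus low 1 had a median of 0.05 over the collagens and −0.28 over the fibrillar class, and high 3 set against the average of lows 2 and 3 had −0.18 and −0.27. For the first Col1a2 probe set the contrasts were −2.82 and −3.28, for Col1a1 −0.76 and −0.22, for Col3a1 −0.57 and −0.19, for Col4a1 −0.94 and −0.20 and for Col4a2 0.29 and 0.23. They share columns through the relations given above, so the equal signs are not independent readings.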

How the data were processed

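The authors deposited log2 intensities of 41345 probe sets on 6 Affymetrix Mouse Gene ST 2.0 arrays, with medians of 3.76 to 3.85. Affymetrix Expression Console and RMA are the tools in the submitters' processing notes. The build is not given in the sources used here. A comparison table with the ratio of high over low was also deposited by the authors, and is used for Col1a2 only. All per-sample columns were mapped to a sample. Of the probe sets 23521 had 1 gene symbol, 1820 several and 16004 none in the annotation. High minus low was fitted over all probe sets with limma 3.58.1 in R 4.3.3 (lmFit, eBayes, two-sided, Benjamini-Hochberg adjustment over all probe sets, threshold 0.05), with group and inferred array set as terms. One set holds both arrays numbered 1, another holds low arrays 2 and 3 beside high array 3, and high array 2 forms its own. The labels name no such sets, which were inferred from the columns. The term changes the residual degrees of freedom and the standard errors, not the differences. The exact permutation test planned for single values is not reported, since it would count computed columns as arrays. No filter on dim probe sets was used. Pathway and marker lists use the brightest probe set of each gene. Described were 12 fixed collagens, the 3 further ones with the largest difference in each class, and up to 3 genes of each pathway list by smallest p. Members, lists and tests were chosen with earlier results of these data known. Arrays give no counts, and their number limits the precision.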

Additional observations from a re-analysis of the deposited data

How the results depend on the processing

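With group as the only term the fold changes stay, and limma called 1 collagen probe set lower (Col1a2, −3.08), 2 processing genes and 2 degradation genes, where the fit with the array-set term called 0 of each. Over all 41345 probe sets it called 874 lower (2.11%) and 841 higher (2.03%), against 0 with the array-set term, which leaves 2 in place of 4 residual degrees of freedom and the same differences. With 1 probe set per gene, 1 collagen was lower by 1.5-fold or more. Centring arrays on their median and quantile normalization each gave 1 collagen higher by 1.5-fold or more (Col8a1). Leaving out 1 array at a time gave 0 calls among collagens and pathway genes. It moved the count of collagens lower by 1.5-fold from 2 to 4 (4 without high replicate 3), that of collagens higher from 0 to 1 (1 without low replicate 3), and the median difference from −0.18 (without high replicate 1 or low replicate 1, which are the same fit) to 0.051 (without high replicate 3). Signs changed in 10 of 340 values, all from leaving out 1 array. The ranges were −0.18 to 0.29 for the Col5a1 probe set 17383350, −0.041 to 0.31 for the Col6a1 probe set 17242177, −0.46 to 0.025 for Col11a1, −0.39 to 0.12 for Col4a4, −0.39 to 0.18 for Col4a3 and −0.57 to 0.0045 for Col14a1. With the replicate number as a block, limma called 0 collagen probe sets. The numbers were not taken to pair the arrays: deviations from the group mean correlated at −0.28 for number 3, were opposite for number 1 by the column relations (both arrays numbered 1 also form an inferred array set), and are nil for high replicate 2. Over all probe sets, limma gave 0 calls with the array-set term and 0 with the replicate block. Each of these fits leaves 2 residual degrees of freedom. Group alone, with 4, gave calls, so the 0 calls depend on the term added to group. Lgr5 left out of its list and the bound on the Col1a2 fold were chosen after seeing the data. The cause of these changes was not tested.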
